A study of Mus musculus with 2 samples.

Results

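Cytochrome P450 enzymes were examined in polyadenylated RNA of mouse adipose tissue. The 93 genes described here carry symbols made of Cyp, a family number, a subfamily letter or letters and a member number, with pseudogenes left out and with Cyp19a1 and Cyp51 not considered. They are 93 of 43346 mouse genes in the deposited tables, all of them protein-coding, and they belong to 15 families. The tissue came from a male C57BL/6J mouse aged 10 weeks, sequenced as 2 technical libraries of 1 biosample, with no treatment and no second condition. The labels give 2015 as the year library 2 was performed. For library 1 they give a publication year of 2014 and no year of performance. Whether the libraries differ in date is therefore not known, and any such difference cannot be told apart from library. Every SD below is the technical spread over n = 2 libraries.

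P450 enzymes are haem proteins that insert an oxygen atom into fat-soluble molecules. Most sit in the endoplasmic reticulum and take electrons from P450 reductase, while a mitochondrial group takes them from ferredoxin. Some families make or break down hormones, bile acids and vitamins, and others clear drugs, solvents and fatty acids. The liver is the best known site of the second kind, and adipose tissue is known for Cyp1b1, Cyp2e1 and members that oxidise fatty acids.

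The libraries held 19954869 and 19256807 expected counts, which are read counts estimated per gene. Levels are given in TPM, a share of all transcripts that corrects for transcript length. Mitochondrial genes and their nuclear copies accounted for 51.7% (library 1) and 15.9% (library 2) of TPM, so TPM of the other genes was lowered more in library 1. Adipocyte markers were present, 7 of 7 at or above 1 TPM in both libraries, and their levels summed to 5005 and 9474 TPM. Most of these sums came from Fabp4, at 4072 and 6105 TPM. Plin1 and Lipe were at only 2.23 and 8.66 TPM in library 1, against 349 and 360 TPM in library 2. Markers of the epididymis, the duct beside one fat depot in which sperm mature, summed to 41640 and 47880 TPM, with all 8 at 1130 TPM or more. The RNA was thus not that of fat alone, and the part that epididymal cells had in any P450 level was not tested. In such bulk RNA, fewer cells of a type and less RNA per cell cannot be told apart.

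The enzymes share a short loop around the cysteine that holds the haem iron, and its coding sequence shows how close the members are. The loop was searched in GENCODE M21 coding sequences on mm10 as 10 codons with phenylalanine or tryptophan first, then glycine or aspartate as the fourth, cysteine as the eighth and glycine, alanine or aspartate as the tenth residue. It was found in 30 of the 32 genes named below and not in Cyp20a1 or Cyp2s1. The 4 genes with the highest mean TPM are shown first, then 3 pairs of relatives that differ at 1 or 2 of the 30 bases. Capitals mark the cysteine codon. Where a range exceeds 30 bases, an intron divides the loop.
Cyp2e1, chr7:140773762-140774577, plus strand: ttttctgcaggaaagcgcgtgTGTgttgga
Cyp27a1, chr1:74737320-74737349, plus strand: ttcggctatggggttcggtctTGCctgggt
Cyp1b1, chr17:79710309-79710338, minus strand: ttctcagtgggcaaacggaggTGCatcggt
Cyp17a1, chr19:46667520-46667549, minus strand: ttcggagctggtccccgatcgTGCattgga
Cyp4f15, chr17:32702398-32702801, plus strand: ttctccgctgggcccaggaacTGCatagga
Cyp4f18, chr8:71988725-71989076, minus strand: ttctcggctgggcccaggaacTGCatagga
Cyp2j13, chr4:96045609-96056567, minus strand: ttttcaatgggaaagcgagctTGCctcgga
Cyp2j6, chr4:96518186-96523712, minus strand: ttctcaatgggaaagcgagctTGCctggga
Cyp4f16, chr17:32550798-32551068, plus strand: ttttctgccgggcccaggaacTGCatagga
Cyp4f17, chr17:32528342-32528729, plus strand: ttttctgctgggcctaggaacTGCatagga

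The codon for the cysteine was TGC in 21 of the 30 loops and TGT in 9. Any 2 of the loops matched at 9 to 29 of 30 bases, and their GC content ran from 40% to 73.3%. Cyp4f15 and Cyp4f18 matched at 29 bases, Cyp2j13 and Cyp2j6 at 28, and Cyp4f16 and Cyp4f17 at 28. In spite of this likeness, the counts of all 32 named genes were whole within 0.005 in both libraries, so the deposited counts show no fractional split with a relative. Fractional counts occur in other genes, Cyp11b1 among them, but the rule by which shared reads were divided is not known, since the quantifier is not given. Counts were whole in 88.9% of all tested genes.

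P450 RNA was dominated by a single gene. Cyp2e1 (ENSMUSG00000025479, chromosome 7, 140763739 to 140774987, plus strand, mm10), which oxidises ethanol, acetone and other small molecules, stood at 875 TPM in library 1 against 970.4 TPM in library 2, or 923 ± 67.3 TPM (SD, n = 2). It rested on 24554 and 21340 counts. Its order between the libraries depends on the scale: with mitochondrial genes and their copies left out it was at 1812 and 1153 TPM, with a mean of 1483 TPM. Its share of the summed TPM of all 93 genes was 80.5% in library 1 and 73.6% in library 2. The sum over all 93 was 1087 and 1319 TPM, and without Cyp2e1 it was 212 and 348 TPM.

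Most of the other members were low or not found. At 1 TPM or more, 22 of 93 members were detected in library 1, 29 in library 2 and 22 in both. The same limit was met in both libraries by 30.5% of all mouse genes and by 57.1% of protein-coding genes. The median member stood at 0.04 TPM in library 1 against 0.08 TPM in library 2. No count was found in either library for 34 members, against 15.9% of protein-coding genes. For these 34, the limit of 3 counts corresponds to between 0.0714 and 0.223 TPM in library 1 and between 0.0912 and 0.284 TPM in library 2, which covers counting error only.

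Members are named where their mean reached 1 TPM, where they were the highest of their family, or where they differed between the libraries at 100 counts or more on average, which gives 32 genes. A further 27 members with 0 to 29 counts per library lay at or under 1.07 TPM in each library. Of the 31 pairs of neighbours in the order of mean TPM, 29 had ranges that overlapped. The exceptions were Cyp2e1 above Cyp27a1 and Cyp1b1 above Cyp17a1. Apart from these gaps, the order of neighbours was not separated beyond the spread between the libraries.

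**Figure D1:**
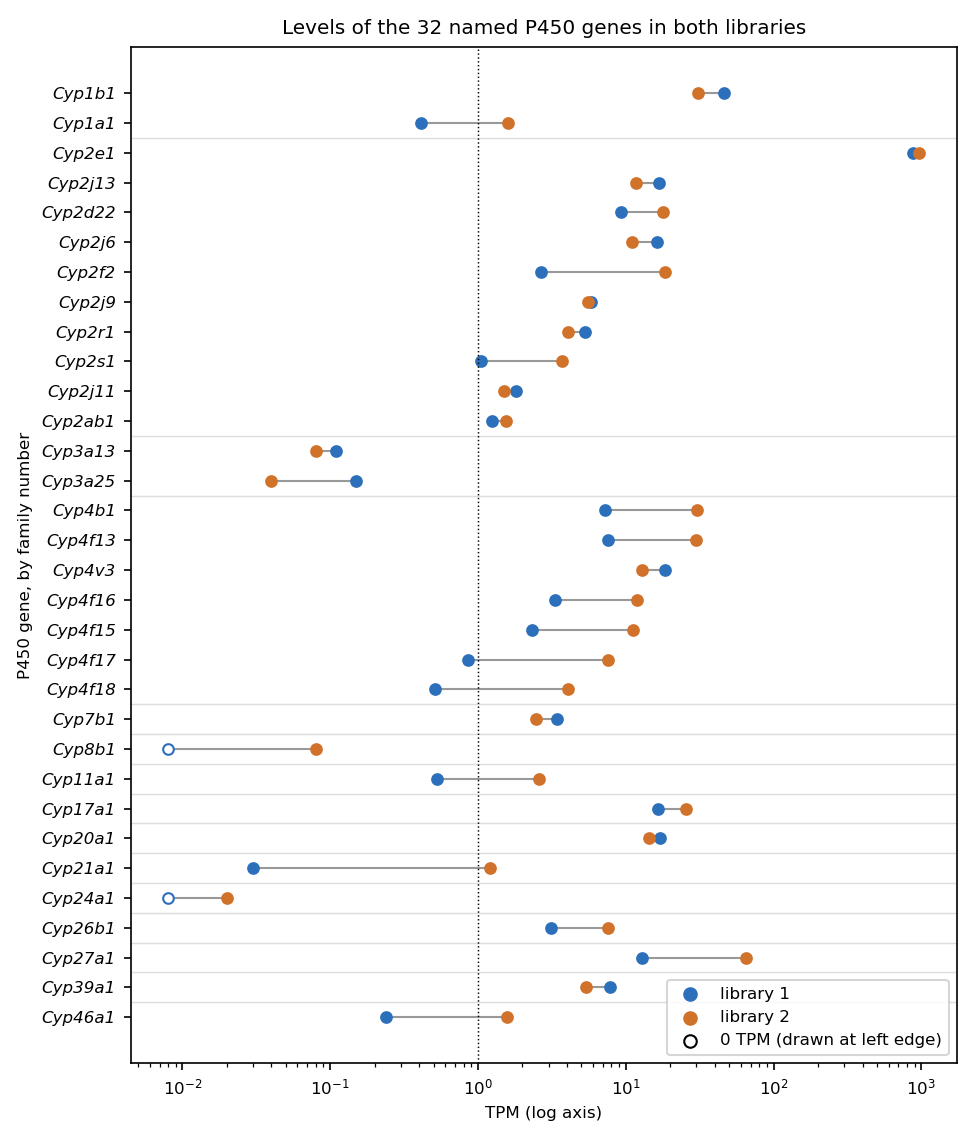
Level of each of the 32 named P450 genes on a log axis of TPM, grouped by family number, with 1 point per library (blue, library 1; orange, library 2), a line joining them and a dotted line at 1 TPM. Cyp2e1 stands alone on the right at 875 and 970.4 TPM, Cyp3a13 and Cyp3a25 lie under 1 TPM in both libraries, and Cyp8b1 and Cyp24a1 are at 0 in library 1 (open points at the left edge).

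The dot plot of levels by family shows that 20 of the 32 named genes had the higher TPM in library 2 and 12 had the lower. Because mitochondrial RNA weighs on TPM unequally, the libraries were also compared by a scaled ratio. This is the log2 ratio of counts, library 2 over library 1, with library sizes scaled by the trimmed mean of M values (TMM) and 0.5 added to each count. A gene was called different where it changed at least 2-fold with an adjusted p under 0.05 by a two-sided exact binomial test with Benjamini-Hochberg adjustment over 18275 genes. This test compares these 2 libraries and covers counting error only. Intervals are 95% exact intervals.

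Of the 93 members, 37 had the 10 counts needed for the test, as did 75.0% of protein-coding genes. Of these, 15 (40.5%) were higher in library 2, where 30.2% of all tested genes were, and 8 (21.6%) were lower, where 18.6% were. Cyp2e1 had a log2 ratio of -0.59 (-0.62 to -0.56), lower in library 2 on this scale but by less than 2-fold, and -0.23 with the trend described next removed. The median log2 ratio was 0.55 over these 37 members and 0.02 over all tested genes. Scaling to total counts in place of TMM added 0.44 to every log2 ratio and gave 16 members higher and 0 lower, so each call of lower below holds relative to the median gene only. The members that passed are those with more reads in either library, so neither share describes the whole family.

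The ratio moved with the GC content of the transcripts. Among the 7 tested members under 45% GC the median log2 ratio was -1.22, with 6 lower in library 2 and 0 higher. Among the 16 members from 50% to under 55% GC it was 1.42, with 10 higher and 0 lower. All tested genes moved in the same directions, with medians of -1.16 and 0.76 in the same GC ranges. Smaller shares of them were called there, 60.5% lower and 39.1% higher, against 85.7% and 62.5% of members. At 55% GC or more the members lay below all genes, with medians of 1.9 and 2.65. In that range 3 of 5 members were higher, beside 86.4% of all genes. Across the 37 members the ratio and GC content were correlated (Pearson r 0.716, Spearman rho 0.664), a description over genes that share both libraries. With the median ratio at each gene's GC content subtracted, 4 members (10.8%) were higher and 5 (13.5%) lower, beside 9.6% and 8.42% of all genes. Of the 15 first called higher, 4 remained so, of the 8 called lower, 1 did, and 0 members went from one call to the opposite one.

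**Figure D2:**
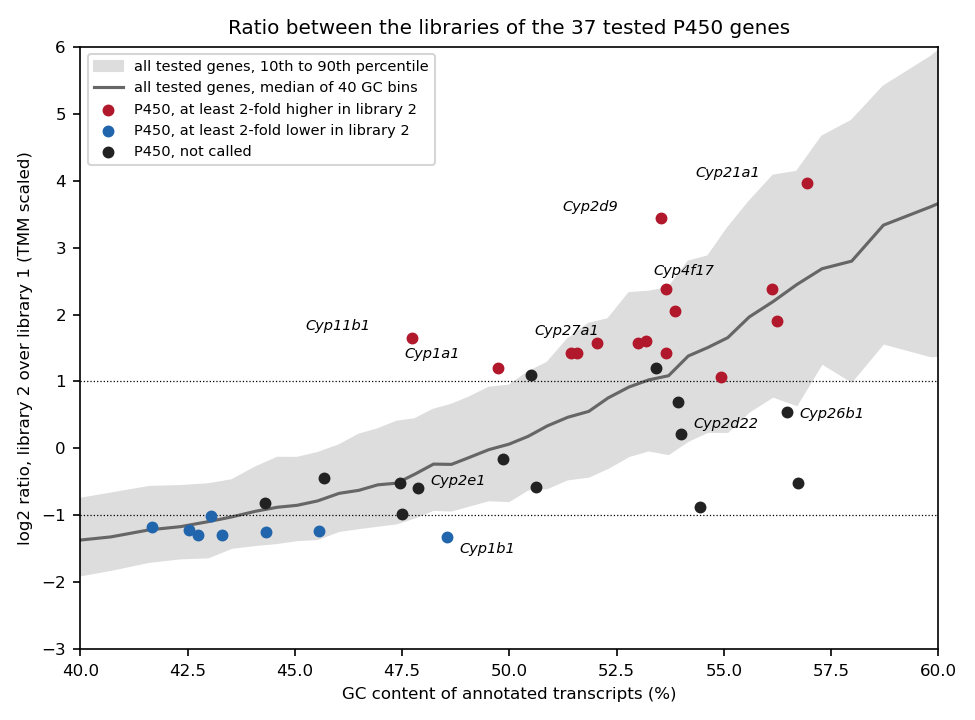
Scaled log2 ratio of library 2 over library 1 against transcript GC content in percent for the 37 tested P450 genes (red, called higher; blue, called lower; black, not called), over the median (grey line) and the 10th to 90th percentile (grey band) of all tested genes. The members follow the rise of the line, with Cyp1b1 and Cyp26b1 among those below the band and Cyp1a1, Cyp11b1 and Cyp2d9 among those above it.

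Targets of the aryl hydrocarbon receptor, which senses planar ring compounds, went in opposite directions. Cyp1b1 (ENSMUSG00000024087, chromosome 17, 79701537 to 79715061, minus strand, mm10), which oxidises oestrogens and polycyclic hydrocarbons, was at 46.0 TPM in library 1 against 30.8 TPM in library 2. On 3885 and 2036 counts, its log2 ratio was -1.32 (-1.40 to -1.24), a call of lower. It was the 1 member that stayed lower with the GC trend removed, at -1.08. Cyp1a1, the best known target of the receptor, was at 0.41 TPM in library 1 against 1.60 TPM in library 2. On 17 and 52 counts its log2 ratio was 1.20 (0.41 to 2.11), and 1.18 with the GC trend removed. With a pseudocount of 5 in place of 0.5 it was 0.99, which is under 2-fold. Cyp1a2, its liver relative, had no count in either library. The receptor gene Ahr was at 5.78 and 5.39 TPM and its partner Arnt at 24.9 and 27.2 TPM, while the repressor gene Ahrr stood at 0.08 and 0.16 TPM.

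The 250 bases before the start of Cyp1a1 and Cyp1b1 are shown because these genes share a regulator. Both libraries are of 1 biosample, and the part of the receptor in the ratios of these genes was not tested. The sequences are from RefSeq on GRCm38.p6, and capitals mark each match to GCGTG, the core of the receptor's binding element, or to its reverse complement CACGC. Each of these windows held 1 match.
Cyp1a1, chr9:57697363-57697612, plus strand: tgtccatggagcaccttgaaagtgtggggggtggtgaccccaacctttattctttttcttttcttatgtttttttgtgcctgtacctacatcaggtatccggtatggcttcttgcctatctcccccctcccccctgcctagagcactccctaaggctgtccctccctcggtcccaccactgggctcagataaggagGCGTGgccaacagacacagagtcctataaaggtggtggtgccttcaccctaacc
Cyp1b1, chr17:79715062-79715311, minus strand: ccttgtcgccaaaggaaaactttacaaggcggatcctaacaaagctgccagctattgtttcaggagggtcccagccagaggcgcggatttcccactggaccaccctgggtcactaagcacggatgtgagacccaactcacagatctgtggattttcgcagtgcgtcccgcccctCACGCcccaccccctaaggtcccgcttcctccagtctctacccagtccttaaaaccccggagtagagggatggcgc

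The same motif was present in 28.2% of 32851 promoter windows of that length and in 10 of 28 windows (35.7%) of the 25 named members that the table matched. The motif is short, and a match is a description of the letters only.

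Family 2 is the largest, with 49 members, and held 86.2% of P450 TPM in library 1 and 79.6% in library 2. In both libraries 10 of them reached 1 TPM, and 22 had no count. After Cyp2e1 the subfamily with the highest sum was Cyp2j, whose enzymes make epoxides of arachidonic acid. Its cluster on chromosome 4 summed to 35.3 ± 7.51 TPM (SD, n = 2) over 8 members, with the higher sum in library 1. Cyp2j13 was at 16.8 and 11.7 TPM, Cyp2j6 at 16.2 and 11.0 TPM and Cyp2j9 at 5.78 and 5.55 TPM. Cyp2j13 and Cyp2j6 were called lower, with log2 ratios of -1.23 (-1.42 to -1.04) and -1.30 (-1.46 to -1.15), and both lost the call with the GC trend removed, at -0.45 and -0.18. Cyp2j11 was at 1.82 and 1.51 TPM. It was called lower too, at -1.01 (-1.67 to -0.37), and lost the call with the GC trend removed, at 0.08. The other 4 Cyp2j genes were under 1 TPM.

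Other subfamilies of family 2 were each carried by 1 gene or by none. Cyp2d22, the most abundant of the 8 Cyp2d genes, was at 9.32 TPM in library 1 against 18.0 TPM in library 2, while the next Cyp2d gene, Cyp2d9, averaged 0.555 TPM. Its log2 ratio was 0.21 (0.03 to 0.39), and -1.07 with the GC trend removed, a call of lower that was lost at -0.98 with 80 bins of GC content in place of 40. Cyp2f2, which activates naphthalene in the mouse airway, was at 2.65 and 18.4 TPM. Its log2 ratio of 2.05 (1.70 to 2.43) was a call of higher, and 0.87 with the GC trend removed was not. Cyp2s1, of epithelia outside the liver, was at 1.05 and 3.68 TPM, and Cyp2ab1 was at 1.25 and 1.54 TPM. The 14 Cyp2c genes clustered on chromosome 19, which in the liver oxidise drugs and arachidonic acid, summed to only 0.24 and 0.23 TPM, and 9 of them had no count.

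Family 4, whose enzymes oxidise the far end of fatty acids and related lipids, had a larger share in library 2. Its 17 members summed to 40.8 TPM in library 1 against 109 TPM in library 2, or 3.75% and 8.26% of P450 TPM. Of its 8 tested members, 6 were higher in library 2 and 1 was lower, where 30.2% and 18.6% of all tested genes were. With the GC trend removed 1 was higher and 0 lower, beside 9.6% and 8.42% of all genes. Cyp4b1, which oxidises medium-chain fatty acids and some toxins, was at 7.19 and 30.3 TPM, with a log2 ratio of 1.43 (1.20 to 1.68). Cyp4f13 was at 7.63 and 29.9 TPM, with a ratio of 1.42 (1.15 to 1.70). The calls of both were lost with the GC trend removed, at 0.93 and 0.34.

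The Cyp4f genes, which act on leukotrienes and long fatty acids, were all higher in library 2 where tested. Cyp4f16 was at 3.31 and 12.0 TPM and Cyp4f15 at 2.31 and 11.2 TPM. Cyp4f17 went from 0.85 TPM in library 1 to 7.63 TPM in library 2 on 22 and 154 counts, with a log2 ratio of 2.39 (1.77 to 3.14). It was the only Cyp4f gene still called with the GC trend removed, at 1.31. Cyp4f18, which degrades leukotriene B4 in mouse neutrophils, was at 0.51 and 4.09 TPM. Its exons overlap those of Zfp961 on the opposite strand, which was at 18.4 and 11.9 TPM, so its level is uncertain where counting did not use strand. Cyp4v3, the mouse counterpart of a human gene of retinal lipid disease, stood apart at 18.4 and 12.9 TPM, with a ratio of -1.25 (-1.39 to -1.11), and -0.34 with the GC trend removed. It overlaps Gm45753 on the same strand, at 1.32 and 1.10 TPM, so its level is uncertain. The 5 Cyp4a members, induced by fatty acids through Ppara in the liver, summed to 2 counts in library 1 and 0 in library 2. Cyp4a12a and Cyp4a30b, whose symbols end in a letter and so are not members, had more. Their counts were 139.8 and 131.05 for Cyp4a12a and 20 and 23 for Cyp4a30b.

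**Figure D3:**
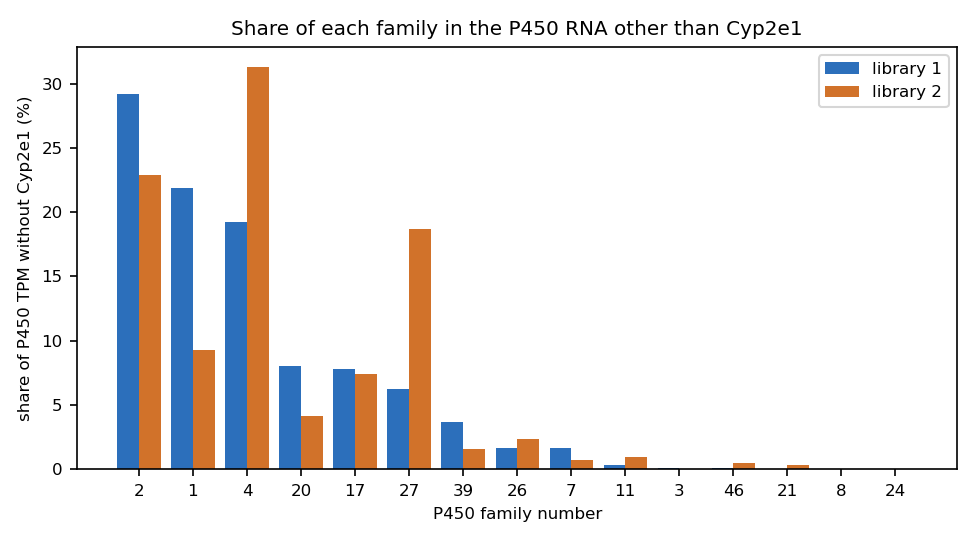
Share of each P450 family, by family number on the horizontal axis, in the summed TPM of all members other than Cyp2e1, in percent, with 1 bar per library. Family 2 leads in library 1 at 29.2% and family 4 in library 2 at 31.3%, and family 27 stands at 6.24% and 18.7%.

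With Cyp2e1 set aside, the bar chart of family shares shows a different order in each library. Family 2 held 29.2% in library 1 and 22.9% in library 2, family 1 held 21.9% and 9.29%, and family 4 held 19.2% and 31.3%. Family 3, the main drug-clearing family of liver and gut, was all but absent. Of its 7 members 5 had no count, and Cyp3a13 (5 and 3 counts) and Cyp3a25 (2 and 1 counts) held the remainder.

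Among enzymes of cholesterol and bile acids, Cyp27a1 was the leading gene. Cyp27a1 (ENSMUSG00000026170, chromosome 1, 74713574 to 74737892, plus strand, mm10), a mitochondrial enzyme that hydroxylates the side chain of cholesterol, was at 13.0 TPM in library 1 against 64.9 TPM in library 2, or 38.9 ± 36.7 TPM. Its log2 ratio was 1.60 (1.41 to 1.80), and 0.59 with the GC trend removed, which is under 2-fold. The oxysterol hydroxylases Cyp39a1 and Cyp7b1 went the other way. Cyp39a1 was at 7.85 and 5.34 TPM, with a ratio of -1.29 (-1.55 to -1.05), and Cyp7b1 at 3.43 and 2.45 TPM, with a ratio of -1.22 (-1.68 to -0.77). With the GC trend removed their ratios were -0.24 and -0.07. Cyp46a1, the cholesterol hydroxylase of neurons, was at 0.24 and 1.58 TPM. Cyp8b1 of bile acid synthesis had 0 and 2 counts, and Cyp7a1, the rate-limiting enzyme of that pathway, had 1 and 0 counts.

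Most RNA of the steroid-making members came from the gene of the androgen branch. Cyp17a1 (ENSMUSG00000003555, chromosome 19, 46667165 to 46673172, minus strand, mm10), the hydroxylase and lyase that leads to androgens, was at 16.6 TPM in library 1 against 25.7 TPM in library 2. Its log2 ratio of -0.16 (-0.34 to 0.02) was not a call, and it was 0.28 with total counts. Cyp11a1, which cuts the cholesterol side chain as the first step of the pathway, was at 0.53 and 2.57 TPM on 19 and 68 counts, and it overlaps the gene Gm17322 on the same strand, so its level is uncertain. Cyp21a1 of the adrenal branch had 1 count in library 1 and 30 in library 2, a log2 ratio of 3.96 with an interval from 1.93 to 9.87. With the GC trend removed the ratio was 1.41 and no longer a call. Cyp11a1 went from a ratio of 1.43 to 0.95 and lost its call as well. Cyp11b1, which completes corticosterone, had 5 and 21.9 counts, a fraction that marks shared reads. The 5 members of this role summed to 17.3 and 30.1 TPM, and of 4 tested 3 were higher in library 2 and 0 lower, beside 30.2% and 18.6% of all tested genes. With the GC trend removed 1 was higher, beside 9.6% of all genes.

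Markers of steroid-making glands and their partner enzymes were measured beside these genes. The Leydig cell list had 3 of 6 genes at or above 1 TPM in both libraries and summed to 10.3 and 44.6 TPM. Most of this sum came from Insl3, at 5.90 and 39.3 TPM, with a fractional count in library 2. The log2 ratio of Insl3 was 1.99, and -2.22 with the GC trend removed, a call of lower. Lhcgr, the gonadotropin receptor of Leydig cells, was at 0.25 TPM in both libraries. The adrenal cortex list had 4 of 6 detected and summed to 21.6 and 27.1 TPM, with Mc2r, also a gene of fat cells, at 12.5 and 8.46 TPM. Star, which carries cholesterol into mitochondria, was at 1.44 and 1.81 TPM and Hsd3b1 at 2.98 and 3.09 TPM. Srd5a2, which makes dihydrotestosterone, was at 31.0 and 111 TPM. Of the 7 steroid partners 2, Srd5a2 and Tspo, were higher in library 2 and 0 lower, a share near the 30.2% of all tested genes that were higher. Both stayed higher with the GC trend removed, at log2 ratios of 1.64 and 2.82, beside 9.6% of all genes. Tspo was at 2.28 TPM in library 1 against 221 TPM in library 2. Markers of sperm-forming cells, 6 of 6 detected, summed to 236 and 1366 TPM. Of these 4 were higher in library 2, and 2 of them with the GC trend removed, beside 30.2% and 9.6% of all genes. The protamine gene Prm2 was at 2.94 and 516 TPM. The part of any of these cells in the level of Cyp17a1 was not tested.

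Vitamin D and retinoic acid enzymes were present at low levels. Cyp2r1, which makes the first hydroxylation of vitamin D, was at 5.29 TPM in library 1 against 4.06 TPM in library 2. Its log2 ratio of -1.17 (-1.65 to -0.70) was a call of lower, and 0.05 with the GC trend removed was not. Cyp27b1, which activates the vitamin, had 10 and 7 counts, and Cyp24a1, which breaks it down, 0 and 1. Cyp24a1 overlaps Pfdn4 on the opposite strand, which was at 11.5 and 12.5 TPM. Cyp26b1, which degrades retinoic acid, was at 3.11 and 7.63 TPM, with a ratio of 0.55 (0.33 to 0.79). With the GC trend removed its ratio was -1.79, a call of lower, at a GC content of 56.5%. Its relative Cyp26a1 was at 0.41 and 0.47 TPM on 11 and 10 counts, and Cyp26c1 had no count.

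Cyp20a1, a P450 of no known substrate, was at 17.1 TPM in library 1 against 14.4 TPM in library 2. Its log2 ratio was -0.44 (-0.65 to -0.24), and 0.31 with the GC trend removed. Neither value was a call.

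Position in the genome and detection were also set side by side. Members less than 500 kb apart formed 10 clusters that held 71 genes, of which 11 (15.5%) were at or above 1 TPM in both libraries. Of the 22 members outside clusters, 11 (50%) were. Within a cluster, levels of neighbours differed widely. On chromosome 4, Cyp4b1 averaged 18.8 TPM and no other member of its cluster of 7 exceeded 0.385 TPM. Cyp4a12a and Cyp4a30b lie within the same stretch but outside the symbol form, and they averaged 4.02 and 1.075 TPM. On chromosome 7, Cyp2f2 and Cyp2s1 were detected among 13 members, and 6 of the 13 had no count. The 6 clustered Cyp3a genes on chromosome 5 had 0 members at 1 TPM.

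**Figure D4:**
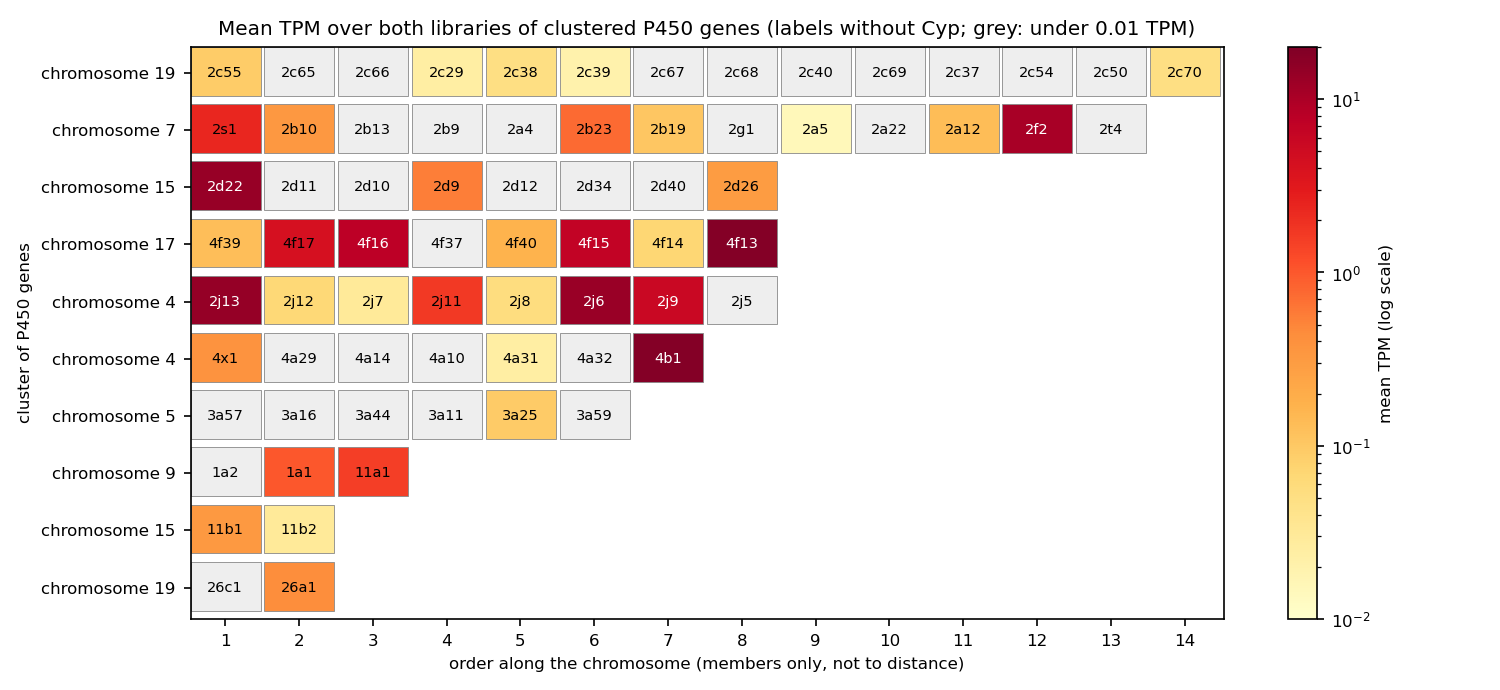
Mean TPM over both libraries (colour, log scale; grey, under 0.01 TPM) of the 71 clustered P450 genes, 1 row per cluster and 1 cell per gene in order along the chromosome, not to distance. The chromosome 19 row of 14 Cyp2c genes is pale or grey throughout, while the Cyp2j row on chromosome 4 and the Cyp4f row on chromosome 17 mix dark and grey cells.

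The heat map of the clusters shows the Cyp4f genes on chromosome 17 and the Cyp2j genes on chromosome 4 as the rows with the most detected members, 3 of 8 and 4 of 8 in both libraries. The Cyp4f row summed to 14.2 TPM in library 1 against 61.3 TPM in library 2, and the Cyp2j row was higher in library 1, where it summed to 40.6 TPM. Their GC contents differ too, as Cyp4f16 stands at 53.0% and Cyp2j6 at 42.8%.

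Transcript levels were compared for the 17 members with a mean of 5 TPM or more, using the percent of a gene's TPM that the authors gave each transcript. The same transcript led in both libraries for 13 of them, of which 5 have a single transcript. The leading transcript differed for Cyp4b1, Cyp4f13, Cyp20a1 and Cyp4f16. By expected counts the lead of Cyp4b1 and Cyp4f13 was the same in both libraries, and 3 transcripts of Cyp4f13 held nearly equal percents in library 1, 32.95%, 32.82% and 32.79%. For Cyp4b1, the transcript annotated for nonsense-mediated decay held 52.1% in library 1 and 5.54% in library 2, where the first coding transcript held 85.9%. For Cyp20a1, a retained-intron transcript held 47.01% in library 1 and 0% in library 2, where the coding transcript held 90.9%. For Cyp4f16, a decay transcript went from 48.7% to 0%, on 19.9 counts in library 1. A longer coding transcript of Cyp4f16 had more counts in library 1, 31.3, but held 26.9% there. Among the stable genes, the coding transcript of Cyp27a1 held 57.8% and 58.0% and that of Cyp17a1 98.6% and 94.7%. These shares are model estimates, given with no error of their own in the files.

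The genes that supply P450 enzymes with electrons were all detected. All 8 electron donor genes were at or above 1 TPM in both libraries, beside 57.1% of protein-coding genes. Of the 8, 5 were higher in library 2 and 0 lower, where 30.2% of all tested genes were higher. With the GC trend removed 1 of 8 was higher, near the 9.6% of all genes. Por, the reductase that serves the enzymes of the endoplasmic reticulum, was at 29.4 TPM in library 1 against 126 TPM in library 2. Its log2 ratio was 2.94, and 0.25 with the GC trend removed. The ferredoxin gene Fdx1, donor of the mitochondrial enzymes Cyp27a1 and Cyp11a1, was at 9.89 and 33.8 TPM. Its ratio was 1.03, and 1.91 with the GC trend removed, so it was the donor that kept the call. The reductase of ferredoxin, Fdxr, was at 2.08 and 7.80 TPM.

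Genes that make and break down haem, the cofactor of every P450, were detected as well, 11 of 11 in both libraries, with 7 higher in library 2 and 0 lower, and 3 higher with the GC trend removed. The shares of all genes called higher were 30.2% and 9.6%. Alas1, which makes the first committed precursor of haem, was at 26.9 and 122 TPM, and Alad, of the next step, at 5.06 and 155 TPM. Of the epoxide hydrolases, which open the epoxides that Cyp2j enzymes make, Ephx2 was at 65.1 and 86.7 TPM and Ephx1 at 19.1 and 52.6 TPM. Of those and the membrane partners Pgrmc1 and Pgrmc2, 1 of 4 was higher and 0 lower, near the share of all genes.

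Among 13 regulators, 5 were detected in both libraries and 6 were under 1 TPM in both. The receptors that induce Cyp2b, Cyp2c and Cyp3a genes in the liver were at the limit. Nr1i3 had no count and Nr1i2 had 0 and 4 counts. Rxra, their partner, was at 5.01 and 45.2 TPM. Of 10 regulators tested 3 were higher in library 2, near the 30.2% of all tested genes, and 0 lower, and with the GC trend removed 0 were higher and 1 was lower. Markers of hepatocytes were low, with 5 of 8 under 1 TPM in both libraries and a summed level of 11.0 and 19.5 TPM. Fga was the highest of them at 5.64 and 9.17 TPM. Hnf4a was at 2.24 and 4.87 TPM, Alb at 2.05 and 3.30 TPM and Ttr at 0.17 and 0.22 TPM.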

How the data were processed

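The data are 2 technical libraries of polyadenylated RNA from 1 biosample of mouse fat. For each gene and transcript the authors deposited expected counts, TPM, FPKM and, for transcripts, a percent of gene TPM, per the file headers. Files were made on mm10 with annotation M4, per the deposited text. For aligner, quantifier and use of strand, the tools are not given in the sources used. Entries that are not mouse genes (26345, with 0 and 2 counts) were left out. Symbols, positions and GC content came from GENCODE M21 on the same assembly, with 42462 identifiers matched. Depth was 19954869 and 19256807 expected counts.

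The members and lists were chosen with earlier results of these data known. Counts were rounded for tests. The test, on genes with 10 or more summed counts, was an exact binomial test (two-sided) with TMM sizes from edgeR and Benjamini-Hochberg adjustment. It compares these 2 libraries, not conditions; 1 library a side leaves no residual degrees of freedom. The trend with GC content was the median log2 ratio in 40 bins. Calls needed 2-fold and an adjusted p under 0.05. The floor is 3 counts, intervals are 95% Clopper-Pearson, and both cover counting error only, since reads without molecular identifiers are not independent. Named members had a mean of 1 TPM or more, led their family, or were called with 100 counts or more on average; the other genes named were chosen after their values were seen or are examples from the lists. The scripts were tested on simulated data. Alternatives covered DESeq2 size factors, total counts, filters, a pseudocount of 5, posterior means, FPKM, other limits of detection, levels without mitochondrial genes and their copies, an edgeR exact test and each library alone. The tools were edgeR 4.0.16 and DESeq2 1.42.0 in R 4.3.3, and scipy 1.17.1, numpy 2.4.6, pandas 2.3.3 and matplotlib 3.10.9 in Python 3.11.15. Promoters came from RefSeq on GRCm38.p6.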

Additional observations from a re-analysis of the deposited data

Results flagged for a closer look

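P450 genes whose symbols end in a letter lie outside the form used to choose the 93 members, and 2 of these 5 genes had reads above the floor in both libraries. Cyp4a12a, a fatty acid hydroxylase that is higher in male mice, averaged 4.02 TPM, with 3.66 TPM in library 1 against 4.38 TPM in library 2. Its 139.8 and 131.05 counts are fractional and are shared with its close relative Cyp4a12b, at 0.06 and 0.13 TPM, so the division between them is uncertain. Cyp4a30b averaged 1.075 TPM, with 0.87 and 1.28 TPM on 20 and 23 counts. Both lie above the level of the 5 Cyp4a genes among the members, which summed to 0.05 TPM in library 1. The remaining genes of this form, Cyp3a41a and Cyp3a41b, had no count.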

How the results depend on the processing

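No paired analysis was possible because both libraries belong to 1 group and no second group shares their numbers. The count of detected members stayed within 19 to 29 under all limits and units tried and with each library alone. Calls of higher members fell from 15 to 8 with a filter of 100 counts (21 members tested) and to 4 with the GC trend removed, and the other alternatives gave 13 to 16. Calls of lower members went from 8 to 0 with total counts, which shift every log2 ratio by 0.44, and to 5 with the GC trend removed. By total counts the split was 16 higher and 0 lower among members, and 85.1% of calls over all genes were higher. With the GC trend removed the log2 ratio changed sign for Cyp20a1 (0.31), Cyp2d22 (-1.07), Cyp2j9 (0.10), Cyp26b1 (-1.79), Cyp2r1 (0.05), Cyp2s1 (-0.55), Cyp2j11 (0.08) and Cyp46a1 (-0.33). Of the 28 named genes tested, 14 kept their sign but lost their call. Total counts turned Cyp17a1 to 0.28. The summed level was 924 by FPKM and 1909 TPM without mitochondrial genes and copies (without Cyp2e1, 426.5). By expected counts, which favour long transcripts, family 2 held 77.2% and family 1 held 8.996%, against 82.9% and 3.36% of TPM. With each library alone, the summed level ran from 1087.3 to 1318.9 TPM, without Cyp2e1 from 212 to 348, the share of family 2 from 79.6% to 86.2%, of family 4 from 3.75% to 8.26%, of family 1 from 2.45% to 4.26% and of family 27 from 1.22% to 4.94%. The same transcript led in 13 of 17 genes by percent and in 15 by counts. GC removal with 20 or 80 bins, with total counts, and the lead by counts were chosen after seeing the data; they kept 4 higher, and 5 lower except with 80 bins (4), where Cyp2d22 at -0.98 was not called. The detection floor and the single biosample limit these values, and the cause of changes with a setting was not tested.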

Other observations

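Pseudogenes and antisense genes of the P450 family were close to silent. Of 16 such genes, 13 had no count in either library. Cyp21a2-ps, the pseudogene beside the adrenal enzyme gene Cyp21a1, had 3 counts in library 1 and 8 in library 2, Cyp4f41-ps 0 and 1, and Cyp4x1os 0 and 1.

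Among members outside the named set, Cyp2d9 had 1 count in library 1 and 21 in library 2, with a log2 ratio of 3.45, and 2.39 with the GC trend removed. Cyp11b1, with a fractional count in library 2, had a ratio of 1.65, and 2.05 with the GC trend removed. These 2, Cyp1a1 and Cyp4f17 are the 4 members that stayed higher with the trend removed. The 5 then called lower were Cyp1b1, Cyp2d22 (not with 80 bins), Cyp26b1, Cyp26a1 at -2.98 and Cyp27b1 at -2.33, of which the last 2 rest on 11 counts or fewer per library.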
